A study of Mus musculus with 31 samples.

Results

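Notch signaling is described here in the lactating mouse mammary gland through 10 genes: the receptors *Notch1*, *Notch2* and *Notch3*, the ligands *Jag1* and *Jag2*, the Fringe enzymes *Lfng*, *Mfng* and *Rfng*, and the target genes *Hes1* and *Hey1*. The set was built around *Lfng*, which had the smallest p for the folic acid (FA) diet of the 14362 genes tested. The other 9 genes were listed by their roles in the pathway. All 10 are among the 55379 genes counted in every library, and all 10 passed the filter on low counts.

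Polyadenylated RNA of whole mammary gland was sequenced from 31 wild-type C57BL/6J dams on lactation day 10, with 1 library per dam. Dams ate either the breeder diet, with 4 mg of FA per kg of diet, or the FA diet, the same base diet with 24 mg per kg, from before mating onward. From gestation onward they were injected with saline or with 20 mg of fluoxetine per kg of body weight, a selective serotonin reuptake inhibitor. By the labels there were 8 dams of breeder diet + saline, 7 of breeder diet + fluoxetine, 8 of FA diet + saline and 8 of FA diet + fluoxetine, whereas the study's methods give the smaller number to the FA diet + fluoxetine group, and the labels were followed. Each dam is named by the number in its label. Dams were bred as young females, and their age at sampling is not given in the sources used here.

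Total counts per dam lay between 15412542 and 36000439. Dam 3 of FA diet + fluoxetine stood apart from the other 30 dams. CPM are counts per 1e6 of a library's effective size, which is its total count scaled by TMM (trimmed mean of M-values). Dam 3 had 18919573 counts and an effective size of 57.2 in units of 1e6, against 12.4 to 31.5 in the others. Its CPM are therefore lower than its plain share of counts. Its 7 secretory luminal markers, which include the milk protein genes *Csn2* and *Wap*, summed to 29251.8 CPM, against 161778.7 to 502671.4 CPM elsewhere. Its 4 macrophage markers summed to 72.7 CPM against 8.06 to 15.9 CPM in the others, its 5 fibroblast markers to 719 against 40.5 to 232 CPM, and its 5 adipocyte markers to 828 against 145 to 370 CPM. Every marker of these 4 lists passed the filter, and none was at 0 over the series. Differences between groups are therefore given over all dams and with this dam left out.

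Notch receptors are transmembrane proteins that are activated by ligands on neighbouring cells. Ligand binding leads to cleavage by an ADAM protease and by γ-secretase, and the freed intracellular domain enters the nucleus, binds the DNA-binding protein RBPJ and turns on genes such as *Hes1* and *Hey1*. Fringe enzymes extend O-linked fucose on the receptor's EGF repeats with N-acetylglucosamine and so set how strongly a receptor answers Delta-like and Jagged ligands. In the mammary gland, Notch signaling is known for guiding progenitors toward the luminal fate, and *Lfng* is itself a Notch target in the segmenting embryo.

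Because *Lfng* can be a target of the pathway, its promoter was searched for the RBPJ motif GTGGGAA on both strands (TTCCCAC on the other). The RefSeq promoter table (GRCm38.p6) held 7 of the 10 genes and did not list *Hes1*, *Hey1* and *Mfng*. In windows of 300 bases, of which 50 follow the gene start, the motif was found at *Lfng* and at none of the other 6 genes, while 6.38% of all 32851 promoters in the table held it. The 250 bases before the *Lfng* start, chr5:140607091-140607340 on the + strand, follow with the motif in capitals, which lies 109 to 103 bases upstream of the start.
Lfng: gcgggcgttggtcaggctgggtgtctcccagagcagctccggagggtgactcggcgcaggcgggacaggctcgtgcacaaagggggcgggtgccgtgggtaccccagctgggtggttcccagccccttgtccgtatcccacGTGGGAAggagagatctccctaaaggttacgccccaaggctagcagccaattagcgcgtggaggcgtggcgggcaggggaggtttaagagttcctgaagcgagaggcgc
A match to these letters is a description of the sequence and does not show that RBPJ was bound there.

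*Lfng* (lunatic fringe, ENSMUSG00000029570) was lower on the FA diet under both drugs. In breeder diet + saline the lowest, median and highest values were 4.84, 9.29 and 13.6 CPM. In breeder diet + fluoxetine they were 6.63, 8.11 and 13.2 CPM. In FA diet + saline they were 2.82, 5.88 and 7.67 CPM, and in FA diet + fluoxetine 2.58, 4.64 and 7.81 CPM. All 16 FA dams lay below the median of the 15 breeder dams, 8.15 CPM, although the ranges overlapped. Of the breeder dams, 10 were above the highest FA dam and 5 were not, and 7 FA dams were below the lowest breeder dam. The mean was 5.43 ± 1.66 CPM on the FA diet (SD, n = 16) and 8.68 ± 2.75 CPM on the breeder diet (SD, n = 15). The log2 fold change was -0.68 with a standard error of 0.16, and it was -0.73 when dam 3 of the FA diet + fluoxetine group was left out. The gene next in order of p, *Kazn*, had a log2 fold change of -0.34 with a standard error of 0.08. Because *Lfng* was chosen by this contrast, these values are a description and carry no test. In bulk tissue, fewer cells that express a gene and less RNA of it per cell cannot be told apart, here and in all that follows. The 6 B cell markers, of which 2 passed the filter, summed to medians of 1.68 and 1.65 CPM in the breeder groups under saline and fluoxetine. In the FA groups they summed to 1.35 and 1.37 CPM, the last being 1.49 CPM without dam 3 of its group. The 7 myoepithelial markers summed to medians of 412 and 308 CPM in the breeder groups and to 463 and 379 CPM in the FA groups. Without dam 3 of its group the last was 331 CPM. The 7 secretory luminal markers summed to medians of 355024.1 and 358083.9 CPM in the breeder groups and to 410131.8 and 389816.2 CPM in the FA groups, the last being 405350.4 CPM without dam 3 of its group. The part of these cells in the *Lfng* difference was not tested.

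**Figure D1:**
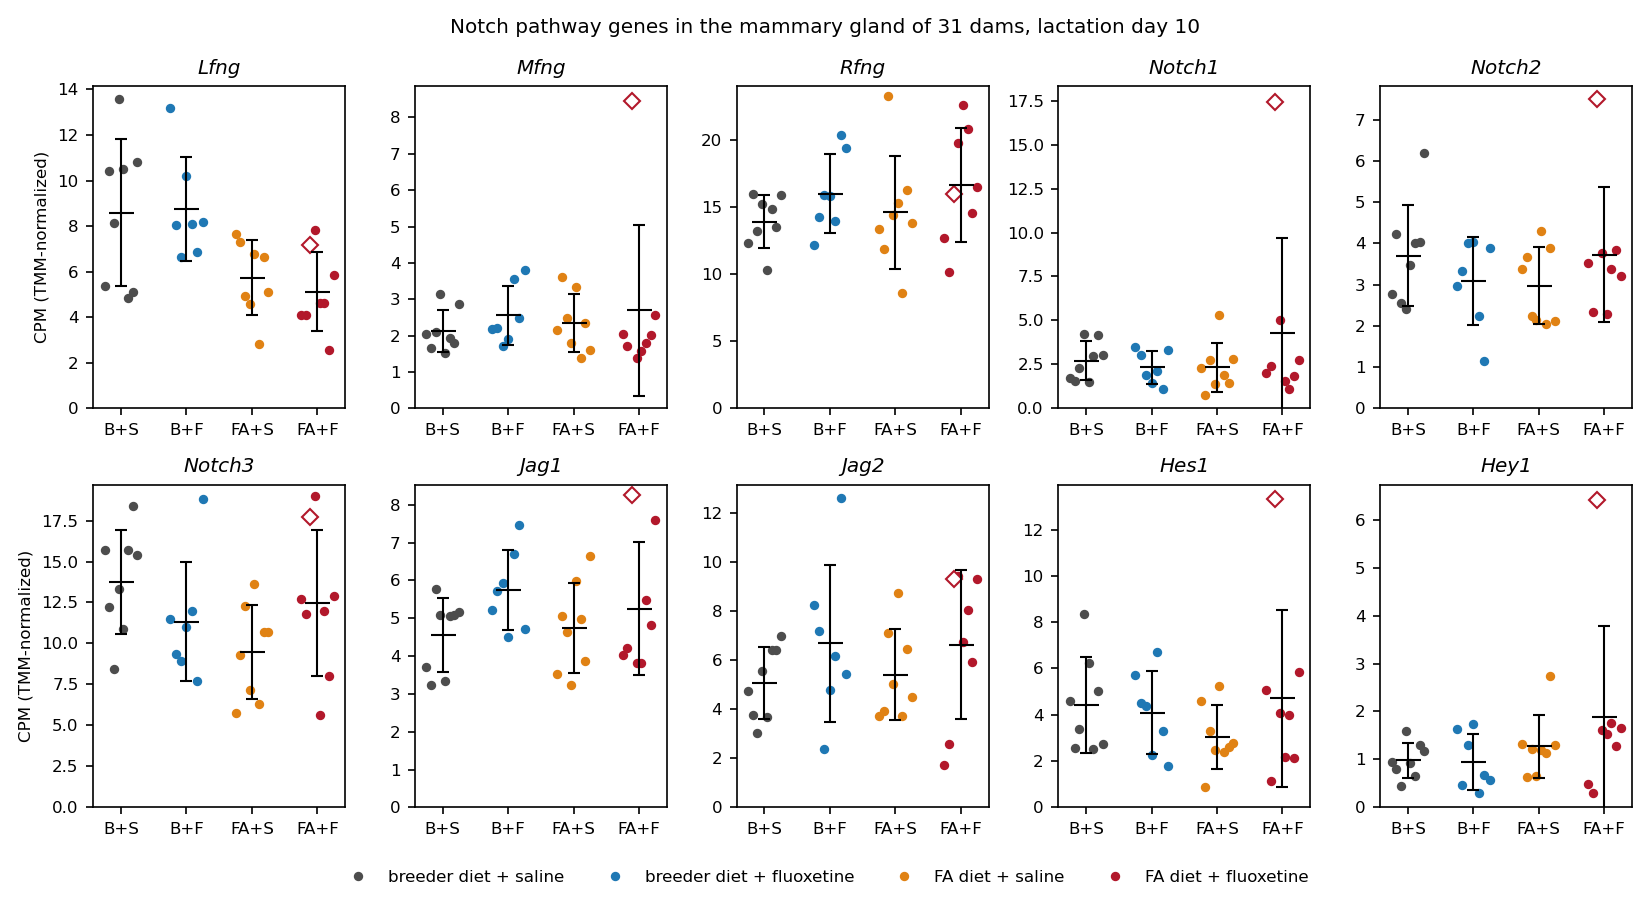
Level of each of the 10 Notch genes in CPM (y axis, 1 scale per panel) in the 4 groups, with B+S for breeder diet + saline, B+F for breeder diet + fluoxetine, FA+S for FA diet + saline and FA+F for FA diet + fluoxetine. Each point is 1 dam, the diamond is dam 3 of FA diet + fluoxetine, and bars give the mean ± SD, with axes starting at 0. *Lfng* medians were 9.29 and 8.11 CPM in the breeder groups against 5.88 and 4.64 CPM in the FA groups, and the diamond was the highest of all dams in 6 of the 10 genes.

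For *Lfng*, the other contrasts were not used in the choice and can be tested. Fluoxetine left a log2 fold change of -0.07 with a standard error of 0.16 (adjusted p = 0.93, edgeR quasi-likelihood test), and of -0.12 without dam 3. The interaction, which is the fluoxetine difference on the FA diet minus that on the breeder diet, was -0.19 with a standard error of 0.33 (adjusted p = 0.978), and -0.29 without dam 3. Neither passed the false discovery rate (FDR) of 10%, and over all dams both differences were below their standard errors.

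No gene of the set, *Lfng* included, passed the FDR for the FA diet. For this contrast 0 of the 9 genes other than *Lfng* passed the FDR of 10% in edgeR's quasi-likelihood test, and 0 did so in edgeR's likelihood ratio test or in DESeq2. Over all 14362 genes 0% passed. Only *Hey1*, 1 of 9, reached an unadjusted p of 0.05, which was higher where *Lfng* was lower, against 5.08% of all genes. When dam 3 of FA diet + fluoxetine was left out, 0 of 9 did. The 9 log2 fold changes had a median of 0.04 and ran from -0.20 to 0.68, with 5 higher and 4 lower on the FA diet, beside a median of 0.02 and 53.9% higher over all genes tested. Without dam 3 the median was -0.10, with 2 higher and 7 lower. The shares and the median over all genes were not computed without this dam, so a shift of all genes was not tested.

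**Figure D2:**
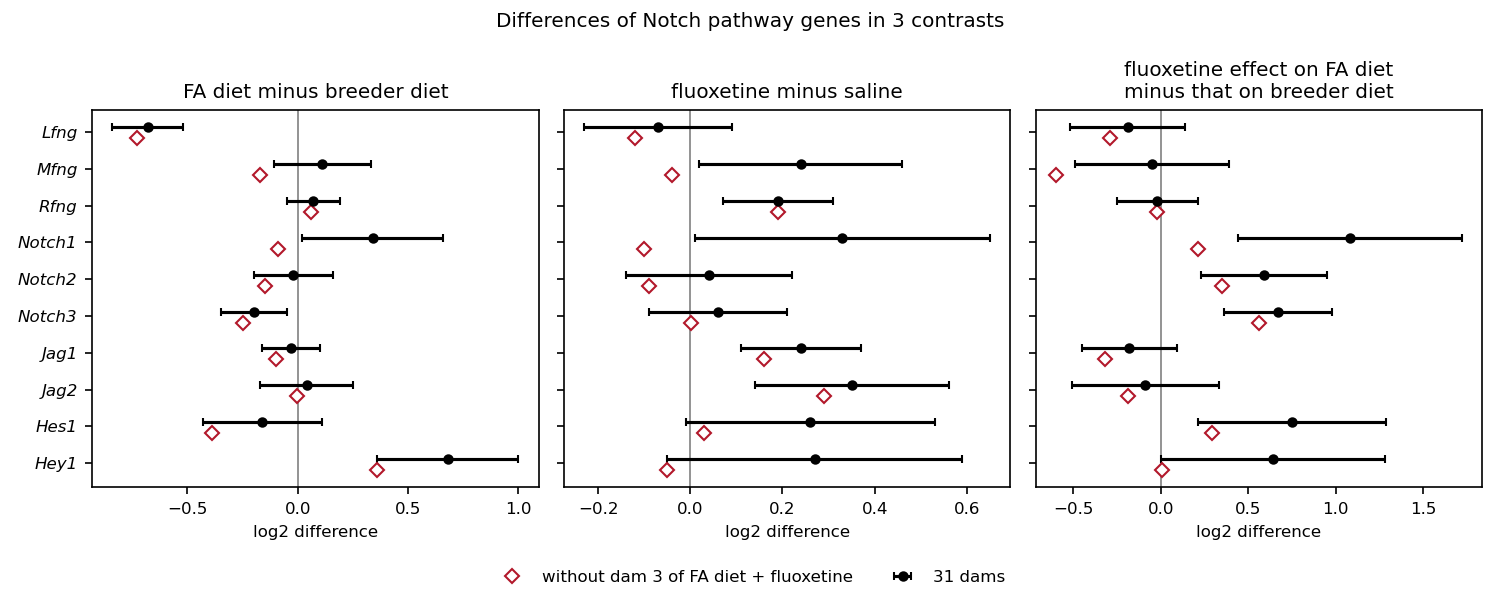
Log2 fold changes of the 10 Notch genes for the FA diet, fluoxetine and their interaction (1 panel each), over all 31 dams with bars of 1 standard error and with dam 3 of FA diet + fluoxetine left out. *Lfng* had -0.68 for the FA diet, which is a description since it was chosen there, and *Hey1* had 0.68, which was 0.36 without dam 3.

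Among the receptors, *Notch3*, which is known from pericytes and vascular smooth muscle and is also made in luminal progenitors, had the highest level per length of exon of the 3. In breeder diet + saline its lowest, median and highest values were 8.43, 14.4 and 18.4 CPM, and in FA diet + saline they were 5.76, 10 and 13.6 CPM. Under fluoxetine they were 7.73, 11 and 18.8 CPM on the breeder diet and 5.66, 12.3 and 19 CPM on the FA diet. All 8 FA diet + saline dams lay below the median of breeder diet + saline, whereas under fluoxetine 6 of 8 FA dams lay above the breeder median, and the ranges overlapped throughout. The interaction was 0.67 on the log2 scale with a standard error of 0.31 (unadjusted p = 0.0359, adjusted p = 0.977, edgeR quasi-likelihood test), so the opposite order under the 2 drugs did not pass the FDR. Without dam 3 of FA diet + fluoxetine it was 0.56 (unadjusted p = 0.0707). The FA diet difference of *Notch3* averaged over drugs was -0.20 with a standard error of 0.15 (adjusted p = 0.943), and -0.25 without dam 3. The 5 pericyte markers summed to medians between 27.1 and 30.2 CPM in the 4 groups, and dam 3 had 47.9 CPM against 18.9 to 45.2 CPM in the other dams.

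*Notch1*, a receptor linked to luminal commitment, was low and depended on 1 dam. In breeder diet + saline the lowest, median and highest values were 1.53, 2.63 and 4.23 CPM. They were 1.08, 2.1 and 3.47 CPM with fluoxetine on the same diet, 0.748, 2.11 and 5.32 CPM in FA diet + saline, and 1.12, 2.23 and 17.4 CPM in FA diet + fluoxetine. The 17.4 CPM is dam 3, and the other 7 dams of its group reached at most 5 CPM. The log2 fold change for the FA diet was 0.34 with a standard error of 0.32 (adjusted p = 0.95) and was -0.09 without dam 3, and the interaction was 1.08 over all dams (adjusted p = 0.977) and 0.21 without that dam. Exons of *Notch1* share 1996 bases with the opposite-strand long noncoding RNA 0610009E02Rik, which had 345 counts in all against 2653 for *Notch1*. The strand setting of the counting is not given in the sources used here. Whether reads lying wholly in this stretch were counted for *Notch1* or left out as ambiguous is therefore not known.

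*Notch2*, a widely expressed receptor, had medians of 3.74 and 3.34 CPM in the breeder groups under saline and fluoxetine and of 2.81 and 3.45 CPM in the FA groups. Values over all dams ran from 1.14 to 7.5 CPM, and the groups overlapped. Its log2 fold change for the FA diet was -0.02 with a standard error of 0.18 (adjusted p = 0.999), and -0.15 without dam 3.

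The ligand *Jag1* had medians of 5.07 and 5.71 CPM in the breeder groups under saline and fluoxetine and of 4.81 and 4.51 CPM in the FA groups, over a range of 3.23 to 8.27 CPM. *Jag2*, the other Jagged ligand, had medians of 5.14 and 6.16 CPM in the breeder groups and of 4.78 and 7.39 CPM in the FA groups, over a range of 1.74 to 12.6 CPM. The FA diet differences were -0.03 for *Jag1* (standard error 0.13) and 0.04 for *Jag2* (standard error 0.21), both within 1 standard error of 0, and they were -0.10 and -0.0049 without dam 3. Under fluoxetine the ligands had a log2 fold change of 0.24 for *Jag1* (standard error 0.13, adjusted p = 0.56) and of 0.35 for *Jag2* (standard error 0.21, adjusted p = 0.587). Leaving out dam 3 of FA diet + fluoxetine gave 0.16 and 0.29. The groups overlapped for both ligands, and neither difference passed the FDR.

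None of the 3 Fringe enzymes passed the FDR for the FA diet. *Rfng* (radical fringe) had medians of 14.2 and 15.8 CPM in the breeder groups under saline and fluoxetine and of 14.1 and 16.2 CPM in the FA groups. *Mfng* (manic fringe) had medians of 2 and 2.2 CPM in the breeder groups and of 2.25 and 1.9 CPM in the FA groups, and its highest value, 8.46 CPM, was that of dam 3 of FA diet + fluoxetine. For the FA diet the log2 fold change was 0.07 for *Rfng* (standard error 0.12, adjusted p = 0.99) and 0.11 for *Mfng* (standard error 0.22, adjusted p = 0.99). Without dam 3 that of *Mfng* was -0.17 and that of *Rfng* 0.06. Of the 16 FA dams, 8 lay below the breeder median for *Rfng* and 9 for *Mfng*. The 16 for *Lfng* are a description, since *Lfng* was chosen by this contrast, and do not test whether the Fringe genes differ.

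The targets had differences of opposite sign on the FA diet, and neither passed the FDR. *Hes1*, a transcriptional repressor induced by the receptors' intracellular domain, had lowest, median and highest values of 2.51, 3.98 and 8.35 CPM in breeder diet + saline and of 1.78, 4.38 and 6.7 CPM in breeder diet + fluoxetine. It had 0.863, 2.69 and 5.24 CPM in FA diet + saline and 1.13, 4.05 and 13.3 CPM in FA diet + fluoxetine, where the highest value was dam 3. Of the 16 FA dams, 11 lay below the breeder median, and the ranges overlapped. The log2 fold change for the FA diet was -0.16 with a standard error of 0.27 (adjusted p = 0.989) and -0.39 without dam 3 (adjusted p = 0.782).

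*Hey1*, a related repressor known as a Notch target in vessels, had few counts, 6 to 366 per dam. Its lowest, median and highest values were 0.444, 0.942 and 1.6 CPM in breeder diet + saline and 0.293, 0.672 and 1.73 CPM with fluoxetine on that diet. In FA diet + saline they were 0.633, 1.2 and 2.75 CPM, and in FA diet + fluoxetine 0.304, 1.58 and 6.4 CPM, the last again in dam 3. Of the 16 FA dams, 12 lay above the breeder median of 0.928 CPM, and the ranges overlapped. The log2 fold change for the FA diet was 0.68 with a standard error of 0.32 (unadjusted p = 0.0413, adjusted p = 0.933, edgeR quasi-likelihood test), and it was 0.36 without dam 3 (unadjusted p = 0.2). The 6 endothelial markers summed to 48.4 CPM in dam 3, within the 27.4 to 67.1 CPM of the other dams.

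Fluoxetine and the interaction gave no call among the 10 genes. For fluoxetine 0 of 10 passed the FDR in edgeR's quasi-likelihood test, its likelihood ratio test or DESeq2, against 0.0209% of all genes in the first of these, and 0 of 10 had an unadjusted p of 0.05 or below, against 9.92% of all genes. The 9 genes other than *Lfng* all had positive log2 fold changes for fluoxetine, with a median of 0.24, beside 0.02 and 53.5% positive over all genes tested. Without dam 3 of FA diet + fluoxetine, 5 of the 9 log2 fold changes were positive and their median was 0.0019. No share or median over all genes was computed without that dam. Over all dams the median CPM was lower under fluoxetine than under saline for *Mfng* (2.04 against 2.09), *Notch1* (2.1 against 2.29) and *Notch2* (3.37 against 3.43). It was higher for the rest of the 9. For the interaction 0 of 10 passed the FDR in the same 3 tests, against 0% of all genes, and 1 of 10, *Notch3*, had an unadjusted p of 0.05 or below, against 3.84% of all genes. The 3 contrasts share the same dams.

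Dam 3 of FA diet + fluoxetine had the highest value of all 31 dams for *Mfng*, *Notch1*, *Notch2*, *Jag1*, *Hes1* and *Hey1*. For *Notch3* and *Jag2* it ranked 4, for *Rfng* 9 and for *Lfng* 14. Its *Lfng* value of 7.18 CPM was thus near the middle of the series. These 6 genes were high in the dam whose macrophage, fibroblast and adipocyte markers were also the highest and whose secretory luminal markers were the lowest, and the part of those cells in the Notch values was not tested.

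Levels of different genes were compared per kb of exon, with all annotated exons of a gene merged over its transcripts. This length can exceed that of the transcript that is made, so the order between genes depends on it. It also holds stretches shared with exons of another gene. The longest were 1996 bases in *Notch1*, 804 in *Notch3*, 541 in *Notch2* (with a gene on the same strand) and 271 in *Hey1*. Shorter ones lay in *Rfng*, *Jag1*, *Jag2* and *Hes1*. Their effect on the order was not tested. *Rfng* had the highest median over all dams, 4.82 CPM per kb, followed by *Lfng* with 2.68 and *Notch3* with 1.3 CPM per kb. *Rfng* was above *Lfng* in 28 of 31 dams, and *Lfng* was above *Notch3* in 30 of 31, so the order of these 3 genes was held by nearly every dam. *Hes1* (1 CPM per kb), *Jag1* (0.85) and *Jag2* (0.838) came next. *Notch3* was above *Hes1* in 16 of 31 dams and *Jag1* above *Jag2* in 15 of 31, so these neighbours did not differ beyond the spread between dams. *Mfng* (0.565 CPM per kb) was above *Notch2* (0.299) in 31 of 31 dams. *Hey1* (0.248) and *Notch1* (0.16) were the lowest of the 10, with *Hey1* above *Notch1* in 21 of 31 dams. *Lfng* medians per kb were 3.67 and 3.21 in the breeder groups under saline and fluoxetine, and 2.33 and 1.83 CPM per kb in the FA groups.

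**Figure D3:**
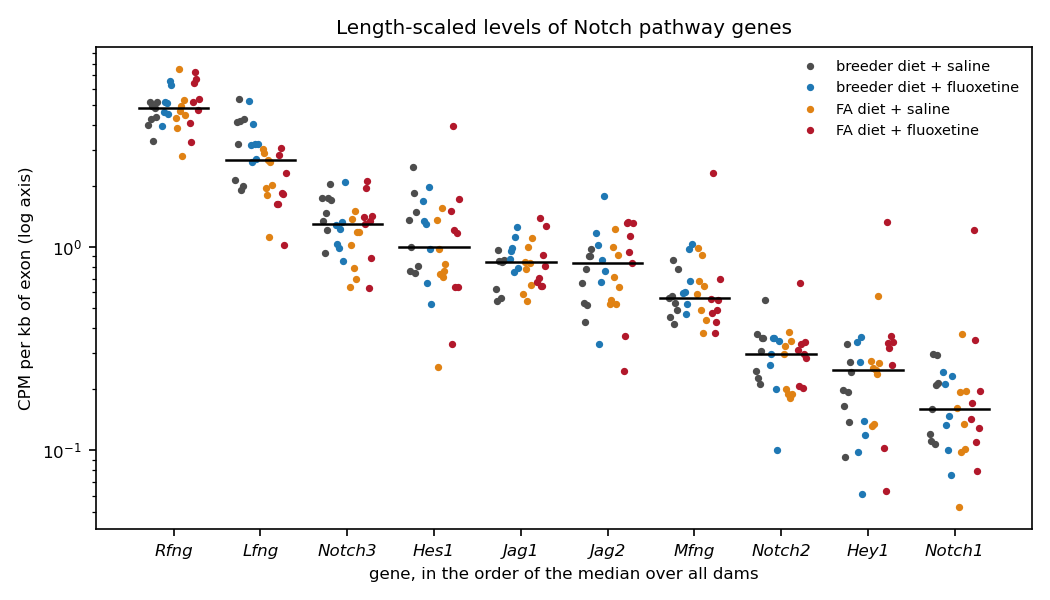
Level of the 10 Notch genes in CPM per kb of exon (log axis) in each dam, ordered by the median over all dams, with color for the group and a line at the median. *Rfng* (4.82) and *Lfng* (2.68) had the highest medians and *Notch1* (0.16) the lowest.

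Whether the genes varied with *Lfng* from dam to dam was asked within groups, after subtracting each group's mean log2 CPM, so that the diet contrast that chose *Lfng* was removed. Over 31 dams, 0 of 9 correlations passed 10% after Benjamini-Hochberg adjustment over the 9 (permutation test, 2-sided, adjusted p from 0.226 to 0.904). The largest Pearson r were 0.36 for *Mfng* (Spearman rho 0.32, permutation p = 0.0588 and 0.0843) and 0.36 for *Hey1* (rho 0.39, permutation p = 0.0527 and 0.0362). For *Jag1* r was -0.02 (rho -0.03, permutation p = 0.904 and 0.884). The other 6 genes had r between 0.19 and 0.33. Without the dams farthest from the *Lfng* median, dam 10 of FA diet + fluoxetine and dam 10 of FA diet + saline, r was 0.30 for *Mfng*, 0.42 for *Hey1* and -0.03 for *Rfng*. Without dam 3 of FA diet + fluoxetine, r was 0.29 for *Mfng* and 0.28 for *Hey1*, and 0 of 9 passed.

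**Figure D4:**
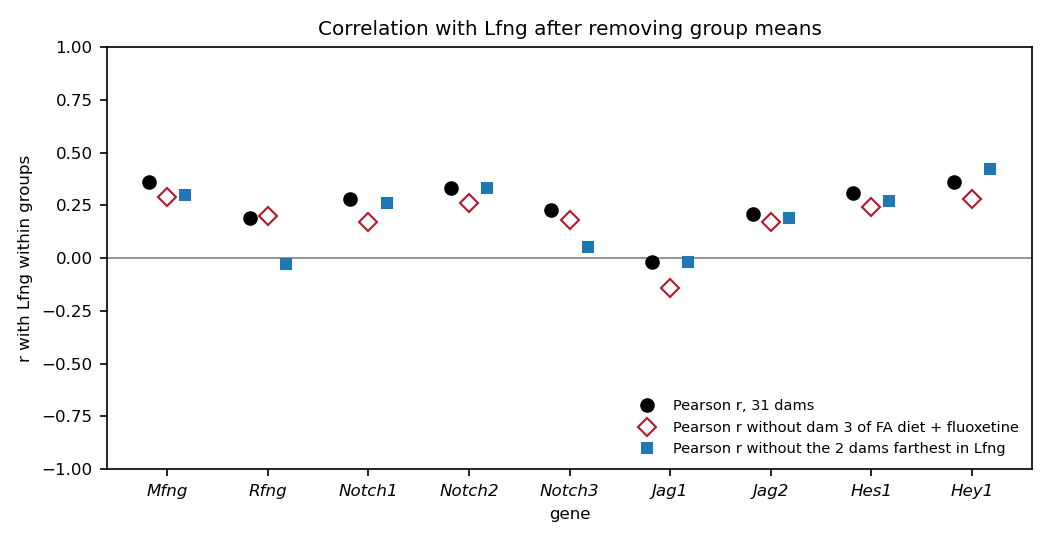
Pearson r of each gene with *Lfng* in log2 CPM after removal of group means, over 31 dams, with dam 3 of FA diet + fluoxetine left out, and without the 2 dams farthest from the *Lfng* median. The values over all 31 dams lie between -0.02 for *Jag1* and 0.36 for *Mfng* and *Hey1*.

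A wider list held 74 Notch pathway genes in 8 roles, and 68 of them passed the filter. The 6 that did not were the ligands *Dll3* and *Dlk1*, the γ-secretase subunit *Aph1b* and the targets *Hes5*, *Hes7* and *Hey2*, with 1 to 196 counts over all dams. None of the 68 passed the FDR for the FA diet, fluoxetine or the interaction in edgeR's quasi-likelihood test, its likelihood ratio test or DESeq2. Of the 68, the FA diet had 4 with an unadjusted p up to 0.05, against 5.08% of all genes, and the 4 include *Lfng*, which was chosen by this p. Fluoxetine had 3, against 9.92% of all genes, and the interaction had 3, against 3.84%. With dam 3 of FA diet + fluoxetine left out these counts were 2, 3 and 1. The 3 for the interaction were *Notch3*, *Gxylt2* with 1.59 and *Aak1* with 0.39 (adjusted p = 0.977 for each, edgeR quasi-likelihood test). The 1 left without dam 3 was *Aak1*, with 0.43. The 68 log2 fold changes had medians of 0.03, 0.07 and 0.10 in these contrasts, beside 0.02, 0.02 and 0.03 over all genes tested, and 36, 48 and 42 of the 68 were higher, beside 53.9%, 53.5% and 54% of all genes. Leaving out dam 3 turned the sign of all 3 medians, to -0.04, -0.005 and -0.0049, with 29, 34 and 34 of the 68 higher. The shares and the medians over all genes were computed with all dams only. Whether all genes shifted likewise without dam 3 was therefore not tested.

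By role, the FA diet gave the 11 enzymes that put sugars on Notch EGF repeats a median log2 fold change of 0.14, with 9 higher and 2 lower, *Lfng* being 1 of the 2, beside 53.9% higher over all genes. Without dam 3 of FA diet + fluoxetine 7 were higher and 4 lower, with a median of 0.11. For this and the other roles, shares over all genes were not computed without that dam. *Pofut1*, which adds the fucose that Fringe extends, had 0.17 with a standard error of 0.13 (adjusted p = 0.943), and 0.20 without dam 3. The 4 receptors had a median of 0.01 and the 5 ligands tested one of -0.03, and without dam 3 these were -0.12 and -0.10. Of the 7 targets tested, 6 were higher and 1, *Hes1*, was lower, with a median of 0.27, and 2 had an unadjusted p of 0.05 or below, *Hey1* and *Myc*, which is also driven by many other signals, beside 53.9% higher and 5.08% at this p over all genes. *Myc* had 0.50 with a standard error of 0.23 (unadjusted p = 0.0369, adjusted p = 0.933). With dam 3 of FA diet + fluoxetine left out, 5 targets were higher and 2 lower with a median of 0.15, *Myc* had 0.37 (unadjusted p = 0.0969), and neither *Hey1* nor *Myc* had an unadjusted p of 0.05 or below. *Furin*, the protease that matures the receptors, had -0.26 with a standard error of 0.12 (unadjusted p = 0.0433, adjusted p = 0.933), and -0.20 without dam 3.

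Under fluoxetine, the gene of the wider list with the smallest p was *Fbxw7*, a ubiquitin ligase subunit that marks the Notch intracellular domain for degradation. Its mean was 20 ± 5.19 CPM under fluoxetine (SD, n = 15) and 15.8 ± 1.77 CPM under saline (SD, n = 16). The log2 fold change was 0.34 with a standard error of 0.11 (unadjusted p = 0.00239, adjusted p = 0.32, edgeR quasi-likelihood test), and 0.26 with dam 3 of FA diet + fluoxetine left out. The other 2 at an unadjusted p of 0.05 or below were *Maml2*, a coactivator of the RBPJ complex, with 0.56 (adjusted p = 0.406), and *Psen2*, a catalytic subunit of γ-secretase, with 0.23 (adjusted p = 0.472). Without dam 3 *Maml2* had 0.31 and *Psen2* 0.23.

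**Figure D5:**
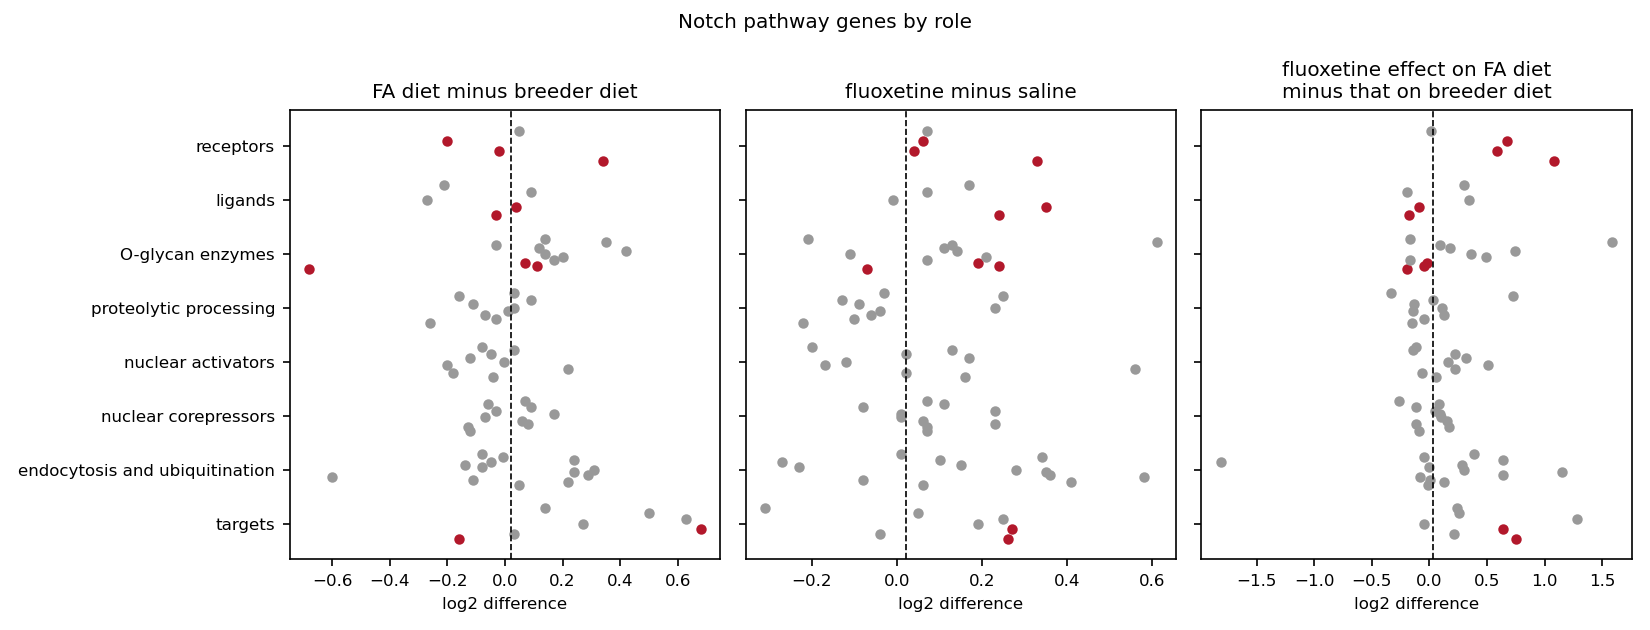
Log2 fold change of each of the 68 tested Notch pathway genes (x axis) by role (y axis) for the FA diet, fluoxetine and their interaction, with the 10 genes described in red, the others in grey and a dashed line at the median of all genes tested. For the FA diet *Lfng*, which was chosen by this contrast, is the lowest of its role at -0.68, while the role's median is 0.14.

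The genes most like *Lfng* over all 31 dams were outside the pathway. By Pearson r of log2 CPM among 14361 genes, the closest were *Traf4* (r = 0.68, rho 0.76), *Pcdh1* (0.66, rho 0.68), *Igkv2-109* (0.66, rho 0.66), *Fzr1* (0.66, rho 0.58) and *Sox10* (0.66, rho 0.73). The lowest were *Psmf1* (-0.67), *Prkra* (-0.60) and *Lpar6* (-0.60). These values include the diet difference by which *Lfng* was chosen, and the dams share depth and composition, so they are a description. *Igkv2-109* is an immunoglobulin segment with a median of 0.389 CPM. Of the 9 Notch genes, *Hes1* ranked highest at place 757 (r = 0.33) and *Jag1* lowest at place 6446 (r = 0.03).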

How the data were processed

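Whole-gland RNA of 31 dams was sequenced in paired ends after poly-A capture. Per the labels and the study's methods, the authors checked reads with FastQC 0.11.7, trimmed them with Trim Galore 0.4.4, aligned them to GRCm39 with HISAT2 and assigned them to genes with HTSeq, in the mode that keeps reads assigned to 1 gene by their non-empty overlaps. The deposited values are unnormalized read counts for each Ensembl gene. The strand option and the annotation release are not given in the sources used here. Symbols, exon lengths and overlaps were taken from GENCODE vM39, which lacked 674 of the 55379 gene identifiers.

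Counts were analysed in R 4.3.3 with edgeR 4.0.16. filterByExpr by group removed 41017 genes and kept 14362, and libraries were scaled by TMM, which also scales the CPM shown. Group means were fitted with robust dispersions and tested by quasi-likelihood, with Benjamini-Hochberg adjustment over all genes tested and an FDR of 10%, the study's threshold. Log2 CPM carried a prior count of 2. The common dispersion was 0.169. Total counts per dam lay between 15412542 and 36000439, and the 20 most abundant genes took 39.3% to 81% of a library. *Hey1* had as few as 6 counts in a dam. Counting noise as well as the spread between dams therefore limits precision where counts are low, and p-values measure both. The labels give no batch. Any 2 libraries of a group differed beyond sampling noise, with a chi-square divided by its degrees of freedom of at least 14.4. Correlations were tested with 100000 permutations within groups in scipy 1.17.1. The procedure was tested on simulated counts.

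Alternatives were the likelihood ratio test that the study used, DESeq2 1.42.0, no filter, RLE scaling, leaving out the 20 most abundant genes, a block on the dam number and each dam left out in turn. The correlations between all pairs of the 10 genes and the group levels without dam 3 of FA diet + fluoxetine were added after seeing the data. The 10 genes and all lists were chosen with earlier results of these data known. Named are the 10 genes, genes of the wider list with an unadjusted p of 0.01 or below, and the 5 most and 3 least like *Lfng*. Other genes of the wider list at an unadjusted p of 0.05 or below, *Pofut1* and *Kazn* were named after their values were seen. Promoter sequence is from RefSeq (GRCm38.p6), and no coordinate was moved between builds.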

Additional observations from a re-analysis of the deposited data

Results flagged for a closer look

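Within each group of 7 or 8 dams, the gap of the highest or lowest dam to its neighbour was compared with the range of the group by Dixon's criterion, for 10 genes in 4 groups. Of the 40 sets of values 8 had a dam past the criterion, where chance alone gives about 1 in 20 for normally distributed values. The CPM were not transformed, and each of the 8 dams was the highest of its group, so that rate may not hold here. Dam 3 of FA diet + fluoxetine was the highest of its group in 5 of them, with 8.46 CPM for *Mfng* (next dam 2.56), 17.4 CPM for *Notch1* (next dam 5), 7.5 CPM for *Notch2* (next dam 3.85), 13.3 CPM for *Hes1* (next dam 5.85) and 6.4 CPM for *Hey1* (next dam 1.75). The genes share this library, so the 5 sets are not independent. In the other 3, *Notch1* was 5.32 CPM in dam 5 of FA diet + saline (next dam 2.8), *Hey1* was 2.75 CPM in dam 11 of FA diet + saline (next dam 1.32), and *Notch3* was 18.8 CPM in dam 13 of breeder diet + fluoxetine (next dam 12). No *Lfng* value was past the criterion in any group.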

How the results depend on the processing

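Under every alternative run, 0 Notch genes passed the FDR of 10% for the FA diet (*Lfng* not counted), fluoxetine or the interaction. *Lfng* kept its direction for the FA diet, with a log2 fold change of -0.69 to -0.66 over the 6 other alternatives and of -0.73 to -0.61 with each dam left out. Of 1110 values of the 30 log2 fold changes under alternatives, 55 had the opposite sign, and 15 of the 30 never had. The number of all genes past the FDR for fluoxetine was 3, and it was 70 with DESeq2, 45 with the likelihood ratio test, 1 with every gene of at least 1 count, 0 with a replicate block, and 0 to 19 with each dam left out (the highest when dam 4 of breeder diet + saline was missing, the lowest when dam 8 of breeder diet + fluoxetine was, and in between 16 for dam 7 of the latter group, 11 and 7 for dams 2 and 10 of FA diet + fluoxetine, 1 and 5 for dams 2 and 3 of FA diet + saline, and 5 for dam 3 of breeder diet + saline). Numbers shared between groups were not treated as pairs in the main fit (correlation of 28 same-numbered pairs -0.22 to 0.429, median 0.0791, 12 over 0.1). Pairs with different numbers were not computed, so whether the numbers pair the dams was not tested. With the replicate block the sign turned for the FA diet in *Notch1* (-0.34) and *Jag2* (-0.0011), and for the interaction in *Mfng* (0.07), *Rfng* (0.22), *Jag2* (0.06), *Hes1* (-0.14) and *Hey1* (-0.16). With each dam left out, signs turned within these ranges. For the FA diet they were -0.17 to 0.17 for *Mfng*, -0.09 to 0.41 for *Notch1*, -0.15 to 0.05 for *Notch2*, -0.10 to 0.0014 for *Jag1* and -0.03 to 0.15 for *Jag2*. For fluoxetine they were -0.04 to 0.29 for *Mfng*, -0.10 to 0.48 for *Notch1*, -0.09 to 0.11 for *Notch2*, -0.03 to 0.11 for *Notch3* and -0.05 to 0.39 for *Hey1*. For the interaction they were -0.60 to 0.08 for *Mfng*, -0.11 to 0.11 for *Rfng* and -0.24 to 0.13 for *Jag2*. The correlation with *Lfng* ran from -0.14 to 0.04 for *Jag1*, and that of *Rfng* was -0.03 without the 2 dams farthest from the *Lfng* median. The causes of these sign changes were not tested. Counts as low as 6 per dam limit *Hey1*.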

Other observations

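Correlations within groups between all 45 pairs of the 10 Notch genes were computed after seeing the data. With all 31 dams, 4 pairs passed 10% after Benjamini-Hochberg adjustment (permutation test, 2-sided), and each was positive. *Notch1* and *Hes1*, a receptor and a target, had r = 0.58 (rho 0.50, permutation p = 0.00373, adjusted p = 0.0789). *Notch1* and *Notch3* had r = 0.56 (rho 0.59, permutation p = 0.00526, adjusted p = 0.0789). *Rfng* and *Jag2* had r = 0.54 (rho 0.57, permutation p = 0.00297, adjusted p = 0.0789), and *Mfng* and *Jag1* had r = 0.52 (rho 0.49, permutation p = 0.00766, adjusted p = 0.0862). Without dam 3 of FA diet + fluoxetine 0 pairs passed, and these 4 had r of 0.41, 0.52, 0.56 and 0.35 (adjusted p = 0.39, 0.14, 0.14 and 0.41, permutation test). Without the 2 dams farthest from the median of the gene named first in each pair, r was 0.28, 0.58, 0.54 and 0.44.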
